A study of Mus musculus with 8 samples.

Results

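Kidneys of 4 wild-type mice at postnatal day 10 (P10) were examined on their own, as 4 of the 8 kidneys of a study that set *Pkd1*V/V mice, which carry a hypomorphic allele of *Pkd1*, against wild-type mice of the same age. The 4 samples were taken by their label as wild-type kidney at P10 and are called kidneys 1 to 4 after their replicate numbers. Each array held the RNA of 1 kidney sample, run on an Illumina BeadChip for mouse genes. The sources give no sex for these mice, and the labels name neither strain nor treatment. The paper states a pure C57/BL6N background where it describes another *Pkd1* mouse model. Whether that covers these mice is not clear. Since a single group was described, no test between groups was made, and values are given by kidney with their spread.

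At P10 a mouse kidney is still maturing: new nephrons have stopped forming only shortly before, and the segments laid down in the first days lengthen and take up their transport functions. Blood is filtered in the glomerulus by podocytes over a fenestrated endothelium. The proximal tubule reclaims most of the glucose, amino acids and phosphate, the thick ascending limb and distal convoluted tubule reabsorb salt, and the collecting duct adjusts water, sodium and acid. This work is paid for largely by mitochondrial oxidation, so renal tubules are rich in respiratory enzymes.

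The array held 25697 probes, of which 23978 carry 1 gene name in the platform annotation and stand for 16593 genes. Signals are intensities in arbitrary units after quantile normalization, and a probe was called detected where its deposited detection p-value was under 0.05. Between 52.0 and 54.3% of the probes were detected in a kidney, with a median of 38 to 40 beads per probe. A gene's level was that of its brightest probe, and the brightness of a probe also depends on its sequence, so the order of signals given here is not an order of transcript numbers. In whole kidneys, fewer cells of a type and less RNA per cell cannot be told apart.

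A total of 8708 genes (52.5% of the 16593) were detected on all 4 kidneys, and 6311 (38%) were detected on none. Counts of detected list members below are to be read against these shares. A further 460 were detected on 3 kidneys, 441 on 2, and 673 on a single kidney. Of the 673 genes, 246 were detected on kidney 4 alone, 229 on kidney 3, 108 on kidney 2 and 90 on kidney 1. Of the 1719 probes with no gene name, 699 were detected on all 4 kidneys.

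Kidneys 2 and 4 stood apart in ways their labels do not give. Kidney 4 held transcripts of liver-secreted proteins and, at lower signals, of skeletal muscle, so that counts of genes with a 2-fold range are also given over kidneys 1 to 3. Means ± SD with n = 4 include kidney 4. Of 160 genes of the segment and cell type lists detected on all 4 kidneys, 134 had a mean over kidneys 1 to 3 within 10% of that over all 4, and the largest difference was that of *Cyp2e1* (92.4%). In kidney 2, the Y-linked genes *Eif2s3y* and *Kdm5d* were set at 0 and the X-inactivation transcript *Xist* was bright, in contrast to the other 3 kidneys.

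The brightest probes of the wild-type kidneys belonged to genes of translation and respiration, together with a small number of secreted and blood-borne products. Of the 20 genes with the highest mean signal, 8 encode cytosolic ribosomal proteins. *Rplp1*, an acidic protein of the ribosomal stalk, was the brightest, with signals of 21174, 21843, 21399 and 20184 in kidneys 1 to 4. *Rpl41*, the smallest ribosomal protein, had signals of 18318, 21174, 21174 and 21399. These kidneys therefore lay within 1.08-fold of each other for *Rplp1* and within 1.17-fold for *Rpl41*. The other ribosomal genes in this set were *Rps12*, *Rps24*, *Rps20*, *Rpl37*, *Rpl38* and *Rpl23*. Near the top of the scale the spread is small partly by construction, because quantile normalization gives each rank the same value on every array. The same 20 genes made up the set when kidney 4 was left out.

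**Figure D1:**
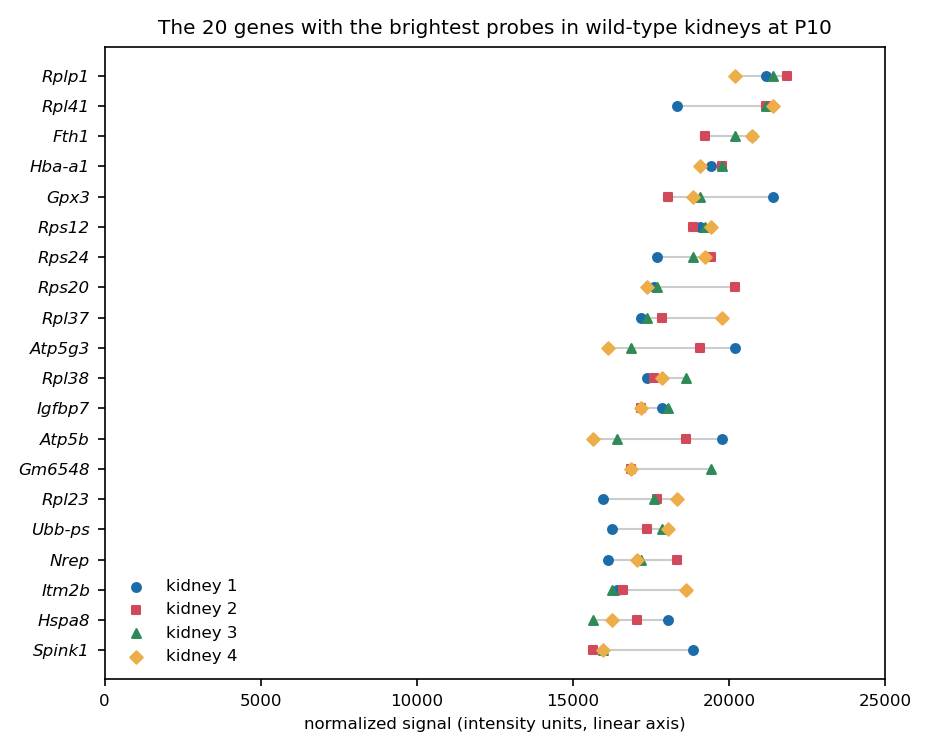
Normalized signal (x axis, intensity units, linear) of the 20 genes with the highest mean signal, 1 row per gene, with 1 symbol for each of the 4 wild-type kidneys and a grey line from the lowest to the highest. The 4 kidneys of any 1 gene stay close together, *Atp5b* being the widest at 1.27-fold.

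Of the other 12 genes, 2 code for subunits of the mitochondrial ATP synthase. *Atp5g3*, a subunit of its membrane ring, averaged 18058 ± 1886, and *Atp5b*, the catalytic beta subunit, averaged 17614 ± 1919.9 (SD, n = 4). *Fth1*, the heavy chain of the iron store ferritin, averaged 20223 ± 713, and *Hspa8*, a constitutive chaperone, 16745 ± 1049 (SD, n = 4). The adult alpha-globin *Hba-a1* averaged 19509 ± 344 and varied least of these, with 19426, 19776, 19776 and 19056 in kidneys 1 to 4. It marks red cells in the organ and not a renal cell.

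Products made for export were also in this set. *Gpx3*, the glutathione peroxidase that the proximal tubule secretes into plasma, had signals of 21399, 18058, 19056 and 18856 in kidneys 1 to 4, highest in kidney 1. *Spink1*, a secreted trypsin inhibitor, had 18856, 15629.6, 15968 and 15968, again highest in kidney 1. *Igfbp7*, a matrix-associated binding protein of growth factors, averaged 17569 ± 448 (SD, n = 4). The remaining members were *Itm2b*, *Nrep*, and *Gm6548* and *Ubb-ps*, both annotated as transcribed pseudogenes. Probes of pseudogenes can bind the transcript of the parent gene, so the source of those last signals is uncertain.

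Cytosolic ribosomal proteins as a list had 52 of 57 genes detected on all 4 kidneys, and 27 of them were among the 100 brightest. Oxidative phosphorylation had 67 of 71 genes detected on all 4 kidneys and 17 among the 100 brightest, *Cox6c* (12502 ± 1576) and *Cox4i1* (12026 ± 764), both of complex IV, following the ATP synthase subunits (mean ± SD, n = 4). The summed signal of the 71 genes was 380831, 338882, 327751 and 291691 in kidneys 1 to 4, so kidney 1 was the highest and kidney 4 the lowest. Of the 69 members detected on at least 1 kidney, 48 were lowest in kidney 4. The share of all detected genes lowest in kidney 4 was not counted, so no excess is read from the 48. Kidney 4 was lowest in 307 of the 974 genes ranging at least 2-fold over the kidneys, but only 4 of the 69 members ranged that far. The 100 brightest genes together carried between 17.5 and 18.1% of all gene signal of a kidney.

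The proximal tubule supplied the brightest segment markers. Of its list, 22 of 23 genes were detected on all 4 kidneys (against 52.5% of all genes), and 4 of them were among the 100 brightest. *Slc34a1*, the sodium-phosphate cotransporter of the brush border, led with signals of 15319, 16249, 12744 and 14725 in kidneys 1 to 4. *Kap*, an androgen-regulated protein of the mouse proximal tubule, had 12454, 14395, 12575 and 11556. *Spp2* averaged 10677 ± 1255, and *Ass1*, which makes argininosuccinate on the way to arginine, 7637 ± 1439 (SD, n = 4). None of the first 3 ranged more than 1.28-fold among the kidneys. In the list as a whole, 8 of 23 genes ranged at least 2-fold over the 4 kidneys (against 9.47% of all genes). Over kidneys 1 to 3, 4 of 23 did (against 3.4%).

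Promoter windows of 4 genes are shown because 3 of them are among the brightest tubule markers and *Ahsg*, described further on, had the widest range of all genes. Each window runs from 250 bases before to 50 bases after the RefSeq start in build GRCm38.p6, in the direction of the gene. Capitals mark the letters GTTAAT on either strand, part of the element bound by hepatocyte nuclear factor 1 proteins in kidney and liver, and TATAAA on the gene's strand. *Slc34a1* lies on the plus strand (chr13:55399398-55399697), *Kap* on the minus strand (chr6:133853618-133853917), *Umod* on the minus strand (chr7:119479213-119479512) and *Ahsg* on the plus strand (chr16:22891765-22892064).
Slc34a1: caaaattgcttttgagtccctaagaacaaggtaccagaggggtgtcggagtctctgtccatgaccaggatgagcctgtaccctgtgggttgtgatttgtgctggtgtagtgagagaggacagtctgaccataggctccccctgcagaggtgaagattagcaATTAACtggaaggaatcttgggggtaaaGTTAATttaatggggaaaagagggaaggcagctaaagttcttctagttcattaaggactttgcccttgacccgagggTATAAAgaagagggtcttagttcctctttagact
Kap: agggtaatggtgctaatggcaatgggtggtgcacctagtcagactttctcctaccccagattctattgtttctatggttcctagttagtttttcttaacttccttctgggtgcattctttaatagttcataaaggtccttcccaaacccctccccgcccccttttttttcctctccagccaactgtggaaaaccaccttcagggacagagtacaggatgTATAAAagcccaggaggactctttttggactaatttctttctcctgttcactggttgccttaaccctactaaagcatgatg
Umod: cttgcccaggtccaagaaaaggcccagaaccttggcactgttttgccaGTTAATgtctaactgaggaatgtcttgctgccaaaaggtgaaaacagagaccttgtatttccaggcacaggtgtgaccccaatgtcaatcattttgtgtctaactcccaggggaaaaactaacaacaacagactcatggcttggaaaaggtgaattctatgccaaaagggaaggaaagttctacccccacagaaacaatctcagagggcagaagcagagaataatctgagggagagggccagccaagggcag
Ahsg: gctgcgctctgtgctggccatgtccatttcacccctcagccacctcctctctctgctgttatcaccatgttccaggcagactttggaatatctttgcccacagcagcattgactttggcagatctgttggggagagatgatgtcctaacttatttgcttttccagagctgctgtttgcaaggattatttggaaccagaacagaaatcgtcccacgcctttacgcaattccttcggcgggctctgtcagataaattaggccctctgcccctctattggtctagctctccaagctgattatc
The *Slc34a1* window held GTTAAT at 2 places and TATAAA at 1, and the *Kap* window TATAAA at 1 place. The *Umod* window held GTTAAT at 1 place, and the *Ahsg* window neither. The TATAAA of *Kap* began 31 bases before the start, whereas that of *Slc34a1* lay after the start. Among all 27025 genes with a window of 300 bases, 7.25% held GTTAAT and 8.89% held TATAAA. Of the 21 proximal tubule genes with a window, 6 held GTTAAT (28.6%) and 5 held TATAAA (23.8%). Of the 23 liver-list genes with a window, 10 held GTTAAT (43.5%) and 7 held TATAAA (30.4%). Both letter runs were thus more frequent in the liver list than among all genes, although *Ahsg* had neither. Of 170 genes with a window that were at least 2-fold higher in kidney 4 than in the others, 14.7% held GTTAAT and 19.4% held TATAAA. Of 48 cytosolic ribosomal genes, 6.25% held GTTAAT and 8.33% held TATAAA. Of 9 thick ascending limb genes, 2 held GTTAAT and 0 held TATAAA. A match is a run of letters and not a measured binding site.

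Metabolic enzymes of the proximal tubule were bright as well. *Miox*, which opens the ring of inositol, had signals of 8665, 6234, 6354 and 4176 in kidneys 1 to 4, and *Fbp1*, a gluconeogenic phosphatase, had 5255, 4091, 4635 and 4588. *Miox* was lowest in kidney 4, while *Fbp1* was of like brightness throughout. *Hnf4a*, a nuclear receptor of proximal tubule and liver, had 1878, 1879, 1651 and 1874, a range of 1.14-fold. The list as a whole summed to 84979, 75432, 72469 and 71292 in kidneys 1 to 4.

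Markers of the early proximal tubule (S1 and S2) were all detected, 7 of 7 on all 4 kidneys, at lower signals. *Slc7a9*, the light chain of the cystine transporter, averaged 2086 ± 266, and *Slc2a2*, the basolateral glucose carrier, 1046 ± 372 (SD, n = 4). *Slc5a2*, the high-capacity sodium-glucose cotransporter, was uneven, with 788, 260.0, 468 and 204 in kidneys 1 to 4. *Slc22a6*, an organic anion transporter, had 1382, 1032, 900.4 and 531, again highest in kidney 1 and lowest in kidney 4. Over kidneys 1 to 3, *Slc5a2* ranged 2.91-fold and *Slc22a6* 1.53-fold.

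The late proximal tubule (S3) had 6 of 8 genes detected on all 4 kidneys (against 52.5% of all genes). *Slc27a2*, a fatty acid transporter and acyl-CoA synthetase, averaged 4328 ± 926, and *Slc5a8*, a monocarboxylate transporter, 1632 ± 104 (SD, n = 4). *Slc5a1*, the high-affinity glucose cotransporter, averaged 278 ± 28.7 (SD, n = 4) and ranged 1.24-fold. *Slc7a13* and *Atp11a* were at background on every kidney. Among the endocytic receptors and their partners, *Lrpap1*, *Dab2* and *Amn* averaged 5960.4 ± 492, 5376 ± 434 and 3261 ± 340.1 (SD, n = 4), while the single probe of *Lrp2*, megalin, was detected on 1 kidney only.

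All 11 genes of the thick ascending limb list were detected on all 4 kidneys, and 3 were among the 100 brightest. *Slc12a1*, the sodium-potassium-chloride cotransporter that loop diuretics block, had signals of 6884, 8751, 8023 and 7653 in kidneys 1 to 4. *Umod*, uromodulin, the main protein of normal urine, had 8349.6, 7792, 7265 and 6648, and *Cldn10*, a claudin of the cation-selective paracellular path, averaged 7624 ± 879.8 (SD, n = 4). The 4 kidneys lay close to each other in each, within 1.27-fold for *Slc12a1* and 1.26-fold for *Umod*. Lower in signal were *Sostdc1* (3372 ± 516), the growth factor *Egf* (1037 ± 165) and *Ptger3*, a prostaglandin receptor (287, 259.7, 184 and 149.8 in kidneys 1 to 4). None of the 11 varied 2-fold. In a list of this size that is near the 9.47% of all genes detected on at least 1 kidney.

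Thin limb genes were detected in 6 of 7 cases. *Aqp1*, the constitutive water channel shared with the proximal tubule, had 4869, 6852, 5415 and 6443 in kidneys 1 to 4, and *Slc14a2*, a urea transporter, averaged 1185 ± 302 (SD, n = 4). Of 3 macula densa genes, the vasopressin receptor *Avpr1a* was detected on all 4 kidneys, and *Nos1* and *Ptgs2* were at background.

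In the distal convoluted tubule, 8 of 9 genes were detected on all 4 kidneys (against 52.5% of all genes). None varied 2-fold, which in a list of this size is near the 9.47% of all genes. *Slc12a3*, the thiazide-sensitive cotransporter, was steady, with 2635, 2635, 2834 and 2489.6 in kidneys 1 to 4. *Pvalb*, parvalbumin, had 1933, 3058, 2652 and 2174, and *Wnk1*, a kinase that controls the cotransporter, averaged 2368 ± 150.5 (SD, n = 4). *Trpm6*, the apical magnesium channel, had a mean of 105 ± 25.5 (SD, n = 4).

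The connecting tubule had 5 of 7 genes detected on all 4 kidneys (against 52.5% of all genes). *Klk1*, renal kallikrein, had 9651, 10767, 9046 and 6394 in kidneys 1 to 4 and was thereby the only member among the 100 brightest. *S100g*, calbindin-D9k, had 458, 295, 307 and 533. The epithelial calcium channel *Trpv5* had signals of 32.7 to 41.7 in kidneys 1 to 3 and was not detected in kidney 4. The single probe of *Calb1*, calbindin-D28k, was at background on every kidney.

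Collecting duct principal cells had 12 of 13 genes detected on all 4 kidneys. *Fxyd4*, a regulator of the sodium pump, was steady at 1547, 1588, 1520.1 and 1605 in kidneys 1 to 4. The epithelial sodium channel was represented by *Scnn1a* (492 ± 133), *Scnn1b* (1185 ± 246) and *Scnn1g* (792 ± 67.5), its 3 subunits (mean ± SD, n = 4). *Aqp2*, the water channel under vasopressin, had 439, 625, 823 and 1038 in kidneys 1 to 4, which was the only 2-fold difference in the list, at 2.31-fold over all kidneys and 1.84-fold over kidneys 1 to 3. The vasopressin receptor *Avpr2* was at background.

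Intercalated cells, which move acid and base, had 9 of 14 genes detected on all 4 kidneys, not far from the 52.5% of all genes. *Slc4a1*, the anion exchanger that red cells also use, averaged 834 ± 163, and pendrin, *Slc26a4*, 675 ± 49.9 (SD, n = 4). *Car2*, cytosolic carbonic anhydrase, had 1304, 575, 899 and 509 in kidneys 1 to 4 and was the only member past 2-fold. *Aqp6*, *Atp6v0d2* and *Hmx2* were at background. Transporters and pumps of sodium were all detected, 11 of 11, led after *Slc34a1* by *Atp1b1*, the beta subunit of the sodium pump (12818 ± 682), and *Fxyd2*, its gamma subunit (9168 ± 1364; mean ± SD, n = 4).

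**Figure D2:**
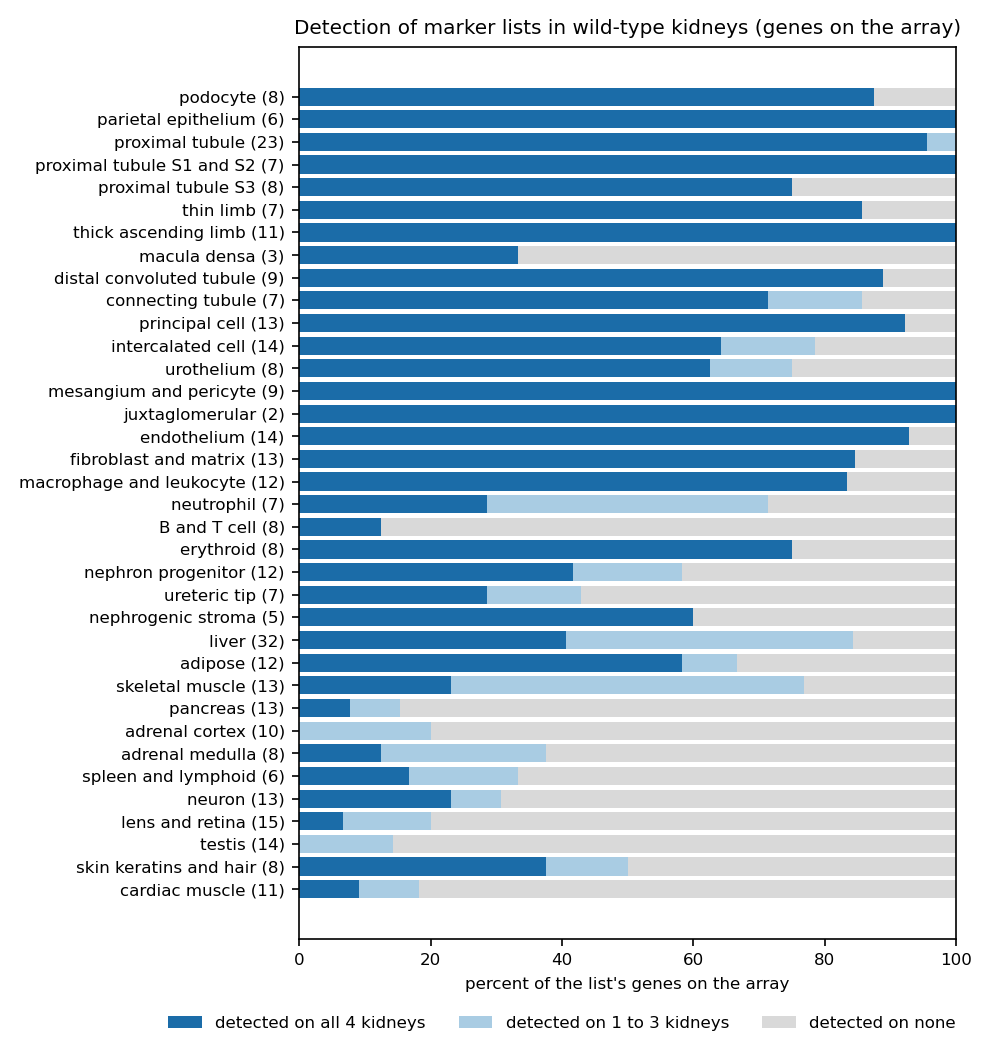
Percent of each marker list's genes (x axis) that were detected on all 4 wild-type kidneys, on 1 to 3, or on none, with the number of genes on the array in parentheses. Segments of the nephron and vessels are mostly detected on all 4 kidneys, whereas most lists of distant tissues are largely detected on none. The liver and muscle lists have a large middle part.

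In the glomerulus, 7 of 8 podocyte genes were detected on all 4 kidneys. *Cdkn1c*, a cell-cycle inhibitor of mature podocytes, was bright at 6648, 9892, 8997 and 7316 in kidneys 1 to 4. *Wt1*, a transcription factor kept in podocytes, had 756, 871, 1086 and 1541, and *Podxl*, podocalyxin, averaged 884 ± 135 (SD, n = 4). *Tcf21*, a factor of podocytes and stroma, had 2549.8, 2618, 3983 and 1340.2. In kidney 4 *Wt1* was the highest and *Tcf21* the lowest, and both ranged less than 2-fold over kidneys 1 to 3. *Cd2ap* was at background. Of parietal epithelium, 6 of 6 genes were detected, *Cldn2*, also a proximal tubule claudin, the brightest (3705 ± 289.8, SD, n = 4).

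Vascular and stromal genes were mostly detected. Endothelium had 13 of 14 genes on all 4 kidneys (against 52.5% of all genes). None passed 2-fold, which in a list of this size is near the 9.47% of all genes. *Emcn* had 3633, 3849, 3936 and 3579.6 in kidneys 1 to 4. *Egfl7* had 3274, 3479.9, 3267 and 3361, and the fenestral diaphragm protein *Plvap* 2036, 2271, 2099 and 2251. These 3 were nearly level across kidneys. The single probe of *Kdr*, the main receptor of VEGF, was at background on every kidney, although *Vegfa* itself averaged 2251 ± 129.8 (SD, n = 4). Mesangial and pericyte genes were detected in 9 of 9 cases at lower signals, *Pdgfrb* averaging 348 ± 46.9 (SD, n = 4).

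Fibroblast and matrix genes had 11 of 13 detected on all 4 kidneys. Decorin, *Dcn*, was the brightest at 8023, 8446, 8751 and 7440.4 in kidneys 1 to 4, followed by the calcification inhibitor *Mgp* (5516 ± 966) and the collagen *Col3a1* (3003 ± 316; mean ± SD, n = 4). *Col1a1* averaged 1923 ± 375 (SD, n = 4), while its partner chain *Col1a2* had 613, 171, 127 and 151, high in kidney 1 alone. *Postn* and *Fbln5* were at background.

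Macrophage and leukocyte genes were mostly detected, at low signals, and B and T cell genes mostly were not. Of the macrophage and leukocyte list 10 of 12 genes were detected on all 4 kidneys, but their summed signal was only 1805, 1849, 1782 and 2288 in kidneys 1 to 4, led by *Laptm5* (577 ± 100.4, SD, n = 4) and *Lyz2* (289 ± 38.2, SD, n = 4). Of the B and T cell list, 1 of 8 was detected, *Cd79b*, at 78.9, 53.2, 55.7 and 80.0, and *Cd3e*, *Cd4*, *Cd8a* and *Ms4a1* were at background. The neutrophil genes *S100a8* and *S100a9*, whose products form calprotectin, were highest in kidney 4. *S100a8* had 456 in kidney 4, against 172, 160.4 and 87.6 in kidneys 1, 2 and 3. *S100a9* had 248 in kidney 4, against 78.9, 98.5 and 40.4 in kidneys 1, 2 and 3. The red cell list had 6 of 8 genes on all 4 kidneys, with *Hbb-bt*, adult beta-globin, at 5366, 4491, 4245 and 3367 and *Alas2*, the first enzyme of erythroid heme synthesis, at 990.2, 918, 827 and 754 in kidneys 1 to 4. Both erythroid genes were highest in kidney 1 and lowest in kidney 4.

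Genes of the nephrogenic zone were partly detected. Of 12 nephron progenitor genes on the array, 5 were detected on all 4 kidneys (against 52.5% of all genes) and 5 on none, which is near the share of all genes on none (38%). The 5 detected on none were *Six2*, which maintains progenitor self-renewal, *Eya1*, *Gdnf*, which draws the ureteric bud, *Hoxd11* and *Uncx*. *Cited1*, another progenitor marker, had signals of 16.1, 21.7, 23.8 and 15.3 in kidneys 1 to 4 and was detected on 2. The members detected throughout were *Crym* (618, 451, 342 and 320.5 in kidneys 1 to 4), *Meox1* (212 ± 35.1), *Hoxa11* (131 ± 32.1), *Tmem100* (118 ± 26.6) and *Pax2*, which maturing tubules also use (71.9 ± 20.8; mean ± SD, n = 4). *Crym* was highest in kidney 1 and lowest in kidney 4.

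Of 7 ureteric tip genes, 2 were detected on all 4 kidneys, and *Ret*, *Wnt11*, *Etv4* and *Sox9* on none. *Wnt9b*, made along the whole ureteric duct, averaged 229 ± 44.5. In the nephrogenic stroma, *Rarb* averaged 436 ± 32.3 and *Foxd1* 51.3 ± 10.4 (SD, n = 4 each), and *Tbx18* and *Ntn1* were at background. Of 20 genes of DNA replication and mitosis, 14 were detected on all 4 kidneys, led by the helicase subunits *Mcm6* (1397 ± 310.0) and *Mcm4* (1159.7 ± 121; mean ± SD, n = 4). *Top2a*, a topoisomerase of dividing cells, had 485, 359.7, 300.0 and 246, and *Cdk1*, the mitotic kinase, had 637, 449, 368 and 219 in kidneys 1 to 4. Both stood highest in kidney 1 and lowest in kidney 4. Of the 17 members detected on at least 1 kidney, 8 ranged at least 2-fold (against 9.47% of all genes), and 6 of 17 did over kidneys 1 to 3 (against 3.4%).

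Lists of tissues that lie away from the kidney were mostly at background, skin keratins and hair less so. Of 1199 olfactory and vomeronasal receptor genes, 20 were detected on all 4 kidneys (against 52.5% of all genes) and 1128 on none (against 38%). Of the testis list 0 of 14 were detected on all 4 and 12 on none, and of the lens and retina list 1 of 15 and 12 of 15. Of the neuron list 3 of 13 were detected on all 4 and 9 on none, and of skin keratins and hair 3 of 8 and 4 of 8. Neighbouring organs gave similar counts apart from liver, fat and muscle. The adrenal cortex had 0 of 10 genes on all 4 kidneys, with the steroidogenic genes *Star*, *Cyp11b1* and *Cyp21a1* at background. In the pancreas list 11 of 13 were at background, the exception on all 4 being *Cela1*, an elastase also transcribed outside the pancreas, with 1345, 845, 551 and 341 in kidneys 1 to 4. In the adrenal medulla list *Ddc*, which the proximal tubule uses to make dopamine, averaged 377 ± 83.6 (SD, n = 4), and *Th* and *Dbh* were at background.

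A probe at background does not show that a gene was silent. Of the cytosolic ribosomal genes, *Rpl14*, *Rpl17*, *Rpl6*, *Rplp2* and *Rps23* had their single probe at background on all 4 kidneys, with no signal above 11.8, while every cell needs these proteins. The same held for *Psma1* and *Psma6* of the proteasome and for *Ndufs1* and *Uqcrq* of the respiratory chain. Among the 4777 genes with several probes, 1294 had 1 probe detected on all 4 kidneys and another on none. Statements on *Calb1*, *Kdr*, *Lrp2*, *Avpr2* and *Cd2ap* rest on the same limit. Of renal hormones, *Kl*, the co-receptor of FGF23, averaged 2371 ± 459.8, and *Epo*, erythropoietin, had no signal above 1.64 and was at background.

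Among themselves the kidneys were much alike. For the 8708 genes detected on all 4, the median range was 1.35-fold over the 4 kidneys and 1.26-fold over kidneys 1 to 3, and 70.4% of the genes ranged less than 1.5-fold over all 4. The median SD over the kidneys was 0.20 on the log2 scale, against a median standard error over the beads of 0.071 on that scale. The first covers separate animals and the second the beads of 1 array alone. Across those genes the correlation between 2 kidneys was 0.963 to 0.985, which describes genes within a tissue and not independent replicates. Pairs with kidney 4 had 175 to 287 genes 2-fold or more apart, and pairs without it 67 to 84.

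**Figure D3:**
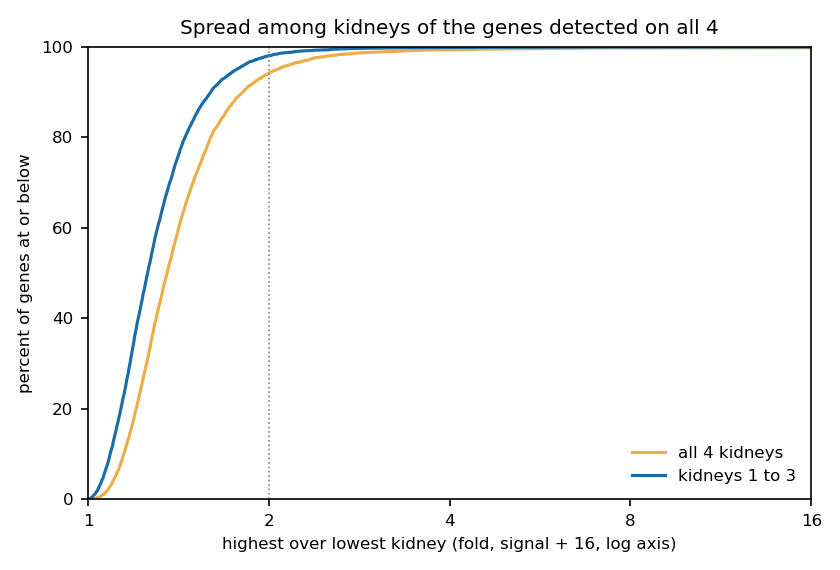
Cumulative percent of the 8708 genes detected on all 4 wild-type kidneys (y axis) by the ratio of the highest to the lowest kidney (x axis, fold on signal + 16, log scale), for all 4 kidneys and for kidneys 1 to 3. The median lies at 1.35-fold for all 4 and at 1.26-fold for kidneys 1 to 3, and the dotted line marks 2-fold.

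A range of at least 2-fold was found in 974 of the 10282 genes detected on at least 1 kidney (9.47%), and over kidneys 1 to 3 in 341 of 10036 (3.4%). Folds are on the signal plus 16, which understates them for dim genes. Kidney 4 was the highest in 420 of the 974 genes and the lowest in 307. A single kidney lay at least 2-fold above the other 3 in 205 genes for kidney 4, against 18 for kidney 1, 5 for kidney 2 and 1 for kidney 3. The 205 are 1.99% of the 10282 genes. It lay at least 2-fold below them in 34 genes for kidney 4, against 10 for kidney 2 and 3 each for kidneys 1 and 3.

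The widest ranges came from proteins that the liver makes for plasma. Of the 20 genes with the largest range, all 20 were highest in kidney 4, 14 were detected on kidney 4 alone, and 12 belonged to the liver list. The 20 include the Y-linked *Eif2s3y*, which had 0 in kidney 2, against 1268, 1052 and 1292 in kidneys 1, 3 and 4. *Ahsg*, fetuin-A, a plasma inhibitor of calcification, had 14245 in kidney 4, against 0.97, 5.42 and 4.58 in kidneys 1, 2 and 3. *Apoa1*, the chief apolipoprotein of high-density lipoprotein, had 12384 in kidney 4, against 2.34, 5.58 and 0 in kidneys 1, 2 and 3. *Hpx*, hemopexin, the heme-binding plasma protein, had 4658 in kidney 4, against 15.3, 10.4 and 5.06 in kidneys 1, 2 and 3. None of the 3 was detected in kidneys 1 to 3. Against the mean of the lowest detected signal in those kidneys, kidney 4 was at least 684-fold higher for *Ahsg*, 594-fold for *Apoa1* and 224-fold for *Hpx*.

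The liver list of 32 genes on the array had a summed signal of 122437 in kidney 4, against 18484, 17486 and 19412 in kidneys 1, 2 and 3. Of its 27 members detected on at least 1 kidney, 25 ranged at least 2-fold over the 4 kidneys (against 9.47% of all genes) and 0 of 14 over kidneys 1 to 3 (against 3.4%). Of the 25, 24 were at least 2-fold higher in kidney 4 than in each of the others (against 1.99% of all genes), and 13 members were detected on all 4 kidneys. Their transcripts at low signal in kidneys 1 to 3 included *Apoa2* (185 to 291), *Serpina1b* (177 to 315), *Trf* (135 to 235) and *Fga* (109 to 163). In kidney 4 these had 10032, 9767, 8384 and 2917.

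*Ttr*, *Kng1* and *Cfb* behaved otherwise. *Ttr*, the thyroxine and retinol carrier, had 13150.5 in kidney 4, against 9892, 7653 and 9196 in kidneys 1, 2 and 3, and *Kng1*, kininogen, the substrate of kallikrein, had 14657 in kidney 4, against 6324, 7505 and 7694 in kidneys 1, 2 and 3. Both were therefore bright in all 4 kidneys. *Cfb*, complement factor B, lay within 2-fold across the kidneys, with 1289 in kidney 4, against 1074, 784 and 951 in kidneys 1, 2 and 3. *Alb*, albumin, and *Fgb* were at background even in kidney 4, and so were *Tat*, *Cyp2c29* and *Fabp1*. The limit stated above for probes at background holds for these genes too. *Fga* and *Fgg* had 2917 and 2212 in kidney 4. *Afp*, the fetal counterpart of albumin, had 1023 in kidney 4, against 169.8, 137 and 182 in kidneys 1, 2 and 3.

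**Figure D4:**
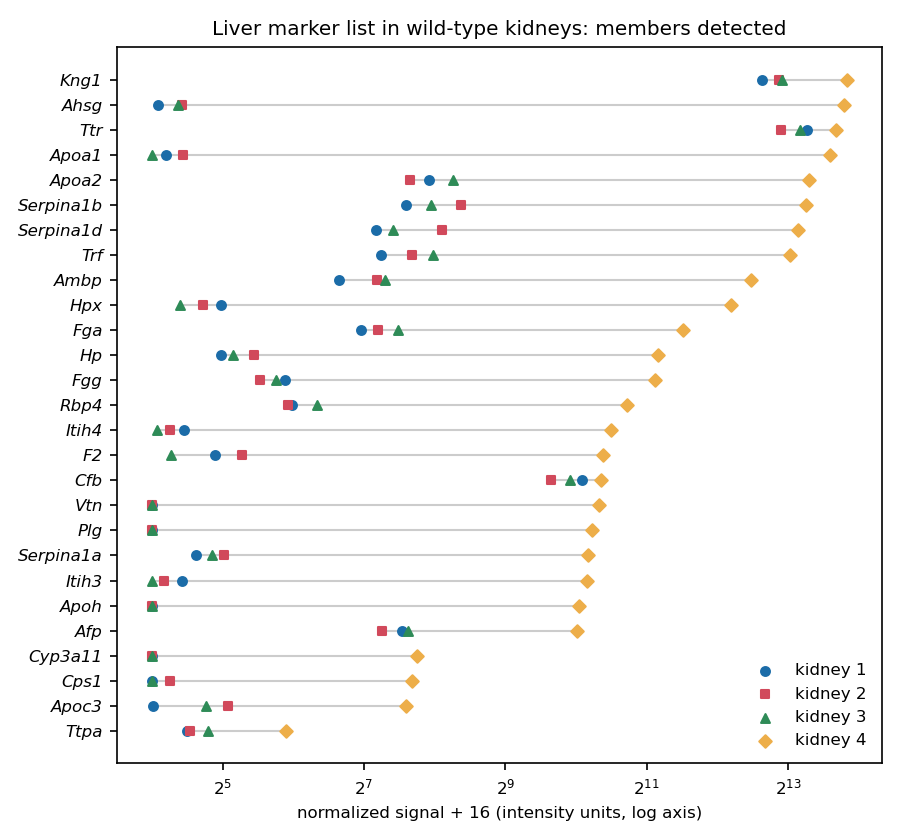
Normalized signal + 16 (x axis, intensity units, log scale) of the 27 liver-list genes detected on at least 1 wild-type kidney, in order of their signal in kidney 4, with 1 symbol per kidney. Kidney 4 lies far to the right of kidneys 1 to 3 for most genes, while *Ttr*, *Kng1* and *Cfb* are bright in all 4.

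A part of the cytochrome P450 genes, oxidases of drugs, steroids and fatty acids, was also highest in kidney 4. Of 41 such genes detected on at least 1 kidney, 17 were at least 2-fold higher in kidney 4 than in each of the others (against 1.99% of all genes) and 22 ranged at least 2-fold (against 9.47%). Over kidneys 1 to 3, 1 of 27 did, near the 3.4% of all genes. Of the fatty acid oxidation list, 0 members stood 2-fold above in kidney 4, near the 1.99% of all genes. *Cyp2e1* had 3593 in kidney 4, against 90.6, 82.6 and 44.9 in kidneys 1, 2 and 3, and *Cyp2c37* and *Cyp2c50* were detected in kidney 4 alone (878 and 728). *Cyp4a14*, a fatty acid hydroxylase, was bright in all kidneys, with 5952 in kidney 4, against 2290.3, 2753 and 3091 in kidneys 1, 2 and 3. Of 7 detected acute phase genes, 3 were at least 2-fold higher in kidney 4 than in each of the others (against 1.99% of all genes). Of these, *Hp* and *Itih4* also belong to the liver list and were counted there. The other, *Serpina3n*, had 1369.6 in kidney 4, against 53.2, 106 and 78.8 in kidneys 1, 2 and 3. *Lcn2*, lipocalin-2, was level at 448, 473, 519 and 486 in kidneys 1 to 4. The liver hormone *Fgf21* had 179 in kidney 4, against 0.97, 9.46 and 12.7 in kidneys 1, 2 and 3, and the glycerol channel of liver, *Aqp9*, 426 in kidney 4, against 0, 0 and 0 in kidneys 1, 2 and 3.

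Some muscle genes were also higher in kidney 4, at far lower signals. The muscle list summed to 3627 in kidney 4, against 2023, 3168 and 2777 in kidneys 1, 2 and 3, most of it the signal of *Pvalb*. Of 10 skeletal muscle genes detected on at least 1 kidney, 7 were at least 2-fold higher there than in each other kidney (against 1.99% of all genes). Over kidneys 1 to 3, 0 of 4 ranged 2-fold (against 3.4%), too few to read against that share. *Acta1*, skeletal alpha-actin, had 309.8 in kidney 4, against 0, 0 and 0 in kidneys 1, 2 and 3, and *Myl1*, a myosin light chain of fast fibres, had 645 in kidney 4, against 23.6, 26.4 and 44.3 in kidneys 1, 2 and 3. *Ckm*, *Mb* and *Myh4* were at background on every kidney. *Pvalb*, which fast muscle shares with the distal convoluted tubule, did not follow them, being highest in kidney 2.

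With kidney 4 set aside, the largest range belonged to a gene of the sex chromosomes, *Eif2s3y* (80.2-fold). *Cyp24a1* (17.5-fold) came next, ahead of the sex-linked *Xist* (13.6-fold) and *Kdm5d* (13.4-fold). *Eif2s3y*, a Y-linked translation factor subunit, had 0 in kidney 2, against 1268, 1052 and 1292 in kidneys 1, 3 and 4, and *Kdm5d*, a Y-linked histone demethylase, had 0 in kidney 2, against 198, 181 and 163 in kidneys 1, 3 and 4. *Xist*, the transcript that coats the inactive X chromosome, had 423 in kidney 2, against 17.2, 16.2 and 23.0 in kidneys 1, 3 and 4. *Xist* was called detected on 2 kidneys. A further Y-linked gene, *Uty*, did not show the split so cleanly, since it was detected on all 4 kidneys, with 38.4 in kidney 2, against 83.2, 84.3 and 57.6 in kidneys 1, 3 and 4. *Kap*, whose expression in mouse kidney is known to depend on androgens in adults, did not follow this split, since kidney 2 had the highest signal (14395, against 11556 to 12575 in the others). Of the 8 detected genes in a list of androgen-responsive kidney genes, 1 ranged at least 2-fold over the 4 kidneys, *Hsd11b1*, with 1320.1 in kidney 4, against 353, 318 and 302 in kidneys 1, 2 and 3, and 0 did over kidneys 1 to 3 (against 9.47 and 3.4% of all genes).

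**Figure D5:**
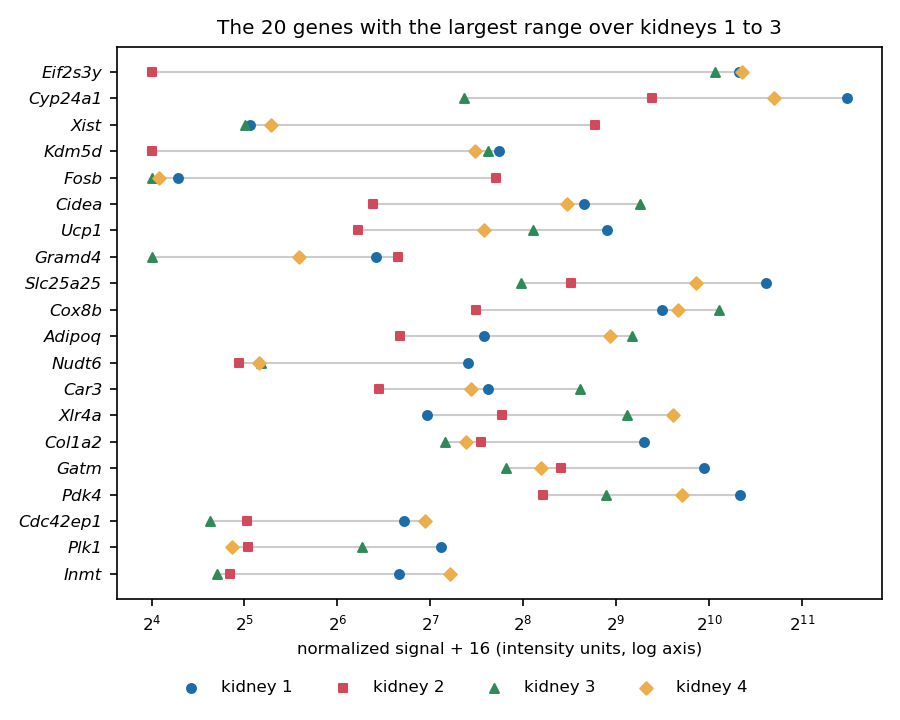
Normalized signal + 16 (x axis, intensity units, log scale) of the 20 genes with the largest range over kidneys 1 to 3, in order of that range, with 1 symbol per wild-type kidney, kidney 4 included. *Eif2s3y*, *Kdm5d* and *Xist* set kidney 2 apart, *Cidea*, *Ucp1* and *Cox8b* are lowest in kidney 2, and *Cyp24a1*, *Slc25a25* and *Pdk4* are highest in kidney 1.

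Kidney 2 was also the lowest in most genes of fat, those of brown fat among them. The adipose list summed to 729 in kidney 2, against 2257, 2519 and 2075 in kidneys 1, 3 and 4. Of its 8 detected members, 7 ranged at least 2-fold over kidneys 1 to 3 (against 3.4% of all genes). The list's brightest member, *Pck1* (mean 593), is among the 7 and is also in the proximal tubule and gluconeogenesis lists. The sum and the count are therefore not of fat alone. *Ucp1*, the uncoupling protein of brown fat, had 58.5 in kidney 2, against 462, 259 and 174 in kidneys 1, 3 and 4. *Cidea*, a lipid droplet protein of brown adipocytes, had 67.5 in kidney 2, against 386, 596 and 339.9 in kidneys 1, 3 and 4. *Cox8b*, a cytochrome c oxidase subunit of brown fat and muscle, had 164 in kidney 2, against 705, 1084 and 796 in kidneys 1, 3 and 4. The hormone of fat cells *Adipoq* had 86.4 in kidney 2, against 176, 560.0 and 475 in kidneys 1, 3 and 4, and *Car3*, a carbonic anhydrase of fat, 71.0 in kidney 2, against 181, 374 and 157 in kidneys 1, 3 and 4. In all 5 genes kidney 2 lay below each other kidney. *Plin1*, *Lep*, *Retn* and the single probe of *Fabp4* were at background on every kidney. The part of perirenal fat in these values was not tested.

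Over kidneys 1 to 3, the widest range of a renal enzyme was that of *Cyp24a1*, the 24-hydroxylase that breaks down active vitamin D. *Cyp24a1* had 2856, 655, 148 and 1642 in kidneys 1 to 4, a 17.5-fold range with or without kidney 4. The 4 kidneys were spread along it rather than divided into groups. Over all 4 kidneys, *Cyp2e1* of the proximal tubule list had a wider range (59.3-fold). *Cyp27b1*, the 1-alpha-hydroxylase that makes the hormone, had 496 in kidney 4, against 119, 92.5 and 198 in kidneys 1, 2 and 3 and ranged 1.97-fold over kidneys 1 to 3. The order of the kidneys differed between *Cyp24a1* and *Cyp27b1*. *Vdr*, the receptor, was steady at 831, 694, 753 and 646 in kidneys 1 to 4. Of 14 detected genes of calcium and magnesium handling, 2 ranged at least 2-fold over the 4 kidneys, these same 2 enzymes, and 1 over kidneys 1 to 3 (against 9.47 and 3.4% of all genes).

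Several genes of mitochondrial transport and glucose metabolism, picked with their values in view, were highest in kidney 1. *Slc25a25*, a calcium-regulated ATP-magnesium carrier of the mitochondrion, had 1554, 348, 237 and 917 in kidneys 1 to 4, and *Pdk4*, the kinase that closes pyruvate dehydrogenase in fasting, had 1273, 281, 460.5 and 818. *Pck1*, phosphoenolpyruvate carboxykinase, had 919.7, 356, 440.1 and 655, and *G6pc*, glucose-6-phosphatase, 4974, 2861, 2432 and 2821. Each of the 4 was highest in kidney 1, and kidney 4 came next in all but *G6pc*. *Gatm*, which makes the precursor of creatine, had 968, 324, 209 and 277, high in kidney 1 alone. In the gluconeogenesis list 2 of 5 detected genes ranged at least 2-fold, with and without kidney 4 (against 9.47 and 3.4% of all genes), and all 5 were highest in kidney 1. Of 12 detected PPARA targets, 5 were highest in kidney 1 and 6 in kidney 4. Being highest in kidney 1 was not particular to gluconeogenesis. It held for 55 of 69 oxidative phosphorylation and 13 of 16 tricarboxylic acid cycle genes, but for 2 of 52 cytosolic ribosomal genes. Among all 974 genes ranging at least 2-fold over the 4 kidneys, kidney 1 was highest in 250 and kidney 4 in 420. Only 4 of the 69 oxidative phosphorylation genes and none of the 16 tricarboxylic acid cycle genes ranged that far. Those shares are therefore no base for the counts given here. How many of all detected genes were highest in kidney 1 or in kidney 4 was not counted.

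Few members of the oxidation and glycolysis lists varied 2-fold. In lists of this size, the counts over the 4 kidneys are near the 9.47% of all genes. In the tricarboxylic acid cycle, 15 of 16 genes were detected on all 4 kidneys and none ranged 2-fold (against 9.47% of all genes). *Suclg1*, a subunit of succinyl-CoA ligase, averaged 6676 ± 456, and *Idh2*, the mitochondrial NADP-dependent isocitrate dehydrogenase, 5901 ± 527 (SD, n = 4). Fatty acid oxidation had 17 of 19 genes on all 4 kidneys, *Acadm*, the medium-chain dehydrogenase, averaging 6026 ± 448 (SD, n = 4). In that list 3 of 18 detected genes passed 2-fold (against 9.47%), and the same 3 of 17 without kidney 4 (against 3.4%): *Hadh* (315, 91.1, 194 and 151 in kidneys 1 to 4), *Ehhadh* (546, 216, 525 and 586) and *Acadl* (1055, 415, 845 and 524). All 3 were lowest in kidney 2. In glycolysis 13 of 15 genes were detected on all 4 kidneys, with *Gapdh* at 12974, 11186, 11556 and 10577 and *Ldha* averaging 5078 ± 293 (SD, n = 4). Of 14 detected, only the dim *Eno3* and *Pgk1* passed 2-fold (against 9.47%), and *Pgk1* alone over kidneys 1 to 3 (against 3.4%).

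Stress and signalling genes split by kidney in different ways. Of the ATF4 response, which cells raise when amino acids run short, 7 of 15 detected genes ranged at least 2-fold over the 4 kidneys (against 9.47% of all genes), and 3 of 14 over kidneys 1 to 3 (against 3.4%). *Asns*, asparagine synthetase, had 846 in kidney 4, against 284, 222 and 269 in kidneys 1, 2 and 3. *Chac1*, a glutathione-degrading enzyme, had 269.6 in kidney 4, against 30.4, 43.6 and 27.0 in kidneys 1, 2 and 3. *Atf4* itself had 495, 182, 142 and 517 in kidneys 1 to 4, high in kidneys 1 and 4 and low in 2 and 3, an order that *Asns* and *Chac1* did not share. The liver list was also highest in kidney 4, and its part in the *Asns* and *Chac1* values was not tested.

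Of the clock genes, 5 of 13 detected ranged at least 2-fold over the 4 kidneys and 2 over kidneys 1 to 3 (against 9.47 and 3.4% of all genes). Kidney 4 was highest in 10 of the 13. The share of all detected genes highest in kidney 4 was not counted, so no excess is read from the 10. Kidney 4 was highest in 420 of the 974 genes ranging at least 2-fold, a set that held 5 of the 13. *Per1*, a light- and glucocorticoid-inducible clock repressor, had 1628 in kidney 4, against 582, 627 and 249 in kidneys 1, 2 and 3, and *Nr1d1*, Rev-erb alpha, had 251 in kidney 4, against 40.8, 70.7 and 37.2 in kidneys 1, 2 and 3. *Bhlhe40* was instead highest in kidney 1, with 3108, 1728, 1220.2 and 1465 in kidneys 1 to 4. *Dbp*, an output gene of the clock, had 633, 712, 637 and 835, a range of 1.31-fold. The times at which the kidneys were taken are not given in the sources used here.

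Of 16 detected immediate early genes, which turn on within minutes of a stimulus, 3 ranged at least 2-fold over the 4 kidneys, *Fosb*, *Fos* and *Atf3*, and 2 of 15 over kidneys 1 to 3, *Fosb* and *Atf3* (against 9.47 and 3.4% of all genes). *Egr1* had 1212, 1595, 1619 and 1554 and *Fos* 91.6, 139.7, 121 and 56.6 in kidneys 1 to 4. *Fosb* had the widest range, with 193 in kidney 2, against 3.54, 0 and 0.89 in kidneys 1, 3 and 4, detected in kidney 2 alone and there at least 9.32-fold above the detection floor of the others. *Mt1*, metallothionein 1, which binds zinc and copper, was bright and uneven, with 6720.1, 5167, 3104 and 8079.8. None of 10 detected heat shock genes and none of 8 detected interferon response genes ranged 2-fold, which in lists of this size is near the 9.47% of all genes. The injury marker *Havcr1*, KIM-1, was at background on every kidney, and *Krt8* and *Clu* averaged 3164 ± 262 and 1322 ± 256 (SD, n = 4).

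Several single genes with wide ranges over kidneys 1 to 3 belonged to none of the lists above. *Xlr4a*, an X-linked gene, had 109, 202, 538 and 766 in kidneys 1 to 4. *Gramd4* had 69.2, 84.6, 0 and 32.2, with kidney 3 set at 0, and *Nudt6* had 154, 14.8, 20.2 and 19.6, bright in kidney 1 alone. Each is read by a single probe. *Cdc42ep1*, *Inmt* and *Plk1*, the last a mitotic kinase of the replication and mitosis list, completed the 20, with signals up to 107, 133 and 122.

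The steadiest genes had the 4 kidneys within a few percent. Among genes detected on all 4 kidneys with a level above the median of such genes, the smallest SD on the log2 scale was that of *Man2a1*, a mannosidase of the Golgi, with 779, 784, 786 and 792 in kidneys 1 to 4. *Gcdh*, glutaryl-CoA dehydrogenase, had 1349.5, 1337, 1342 and 1359.9, and *Tinagl1*, a basement membrane protein, 376, 372, 369 and 372. The usual reference genes *Actb* (1.27-fold), *Hprt* (1.31-fold), *B2m* (1.37-fold) and *Gapdh* (1.23-fold) ranged wider than these, which were picked for a small SD. Of the 11 genes of the reference list, 2 ranged at least 2-fold over the 4 kidneys, and 2 over kidneys 1 to 3 (against 9.47 and 3.4% of all genes). *Pgk1* and *Eef1a1* of that list were detected on 1 kidney each. The median range of genes detected on all 4 kidneys was 1.35-fold.

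*Pkd1*, the gene altered in the other kidneys of the study, was detected on all 4 wild-type kidneys at a modest signal of 85.4, 147, 118 and 118 in kidneys 1 to 4, a range of 1.6-fold. *Pkhd1*, the gene of recessive polycystic disease, had signals of 266, 266, 236 and 271 in kidneys 1 to 4. *Bicc1*, an RNA-binding protein whose loss gives renal cysts in mice, averaged 2404 ± 432 (SD, n = 4). Of 12 cystic disease genes on the array, 9 were detected on all 4 kidneys (against 52.5% of all genes), and *Cys1*, *Tmem67* and *Invs* were at background. None of the 9 ranged 2-fold, which in a list of this size is near the 9.47% of all genes.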

How the data were processed

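Per the study's methods, kidneys were homogenized in PBS, RNA was extracted from the pellet with an RNeasy kit, and arrays were run by a core facility. The authors deposited background-subtracted signal intensities without normalization between arrays, with a detection p-value, the number of beads (a count) and their standard error for each of 25697 probes. Background subtraction is read from values below 0. A second deposited table holds the authors' normalized intensities on a linear scale. The scanner software is not given in the sources used here.

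Signals of all 8 arrays were quantile-normalized (limma 3.58.1 in R 4.3.3), set to 0 where below 0, and transformed as log2 of the signal plus 16. Only the 4 wild-type kidneys were then described, with Python 3.11.15. Gene names came from the platform annotation. For 23962 probes the gene identifier was found in the RefSeq table of GRCm38.p6, which changed 0 names. A gene was detected on an array if any of its probes had a p-value under 0.05. Its level was that of its probe with the highest mean over the 4 kidneys. Where a gene was detected on 1 kidney alone, the bound "at least" sets that signal against the mean log2, over the other arrays, of the higher of the lowest detected signal and the gene's own. Array number limits the precision.

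Named genes were the 20 brightest, the 20 widest in range (both also without kidney 4), the brightest, widest and undetected members of 73 lists, and *Pkd1*; other members and the steadiest genes were picked with their values in view. The members and lists were chosen with earlier results of these data known. The counting was tested on simulated data. Alternatives were another detection threshold, normalization, offset, probe rule or filter, and each kidney left out. Promoter windows came from RefSeq.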

Additional observations from a re-analysis of the deposited data

Results flagged for a closer look

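Some lists and genes had 1 kidney far from the other 3, with the gap to the nearest kidney above Dixon's critical value for a group of this size, as a share of the whole range on the log2 scale. Chance passes that limit in about 1 in 20 groups of 4, and of the 8708 genes detected on all 4 kidneys, 456 (5.24%) passed it. Of 73 lists, 7 did so by their summed signal, and of 182 detected genes named here, 32. Since many of these genes were named for a wide range, and kidney 4 was known to hold liver transcripts, their share is fixed in part by how they were chosen and is not set against the 5.24%. The number after each name is the gap as a share of the range.

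Kidney 4 was the one apart, and highest, for the liver list (0.946), the acute phase list (0.955) and the macrophage and leukocyte list (0.854), and lowest for the kallikrein (0.838) and proteasome (0.853) lists. The liver-type genes were *Ahsg* (0.965), *Apoa1* (0.955), *Hpx* (0.927), *Apoa2* (0.892), *Fga* (0.885), *Trf* (0.874), *Afp* (0.866), *Serpina1b* (0.863), *Cyp2e1* (0.863), *Cyp2c37* (0.916), *Cyp2c50* and *Aqp9* (1 each) and *Hsd11b1* (0.897). The muscle genes were *Acta1* (1) and *Myl1* (0.851). In the same kidney *Trpm6* (0.978) and *Itm2b* (0.837) were high and *Wnt9b* (0.843) low.

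Kidney 2 was the one apart for the sex-linked list (0.868) and the adipose list (0.844), lowest in both. The genes were *Eif2s3y* (0.954) and *Kdm5d* (0.932), low there, *Xist* (0.927) and *Fosb* (0.922), high there, *Ehhadh* (0.888), low, and *Rps20* (0.881), high. In kidney 1, *Nudt6* (0.904), *Spink1* (0.886) and *Slc2a2* (0.831) were high, and *Rpl41* (0.932) and *Egr1* (0.86) low. In kidney 3, *Hnf4a* (0.98) and *Pkhd1* (0.859) were low and *Gm6548* (1) high.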

How the results depend on the processing

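The 8708 genes detected on all 4 kidneys became 7825 with a detection threshold of 0.01, 8682 with the brightest probe alone, and 8763 to 8874 with 1 kidney left out. The 6311 at background became 7518, 6318, and 6401 to 6557. The 974 genes ranging at least 2-fold were 341 to 785 with 1 kidney left out, and 341 without kidney 4. They were 325 with an offset of 64 and 2037 with no offset and a floor of 1, since an offset shrinks the folds of dim genes. Among genes detected on all 4 kidneys they were 508. Other normalizations, the authors' table, the mean of the probes, the stricter threshold and no filter gave 792 to 1095.

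All 20 brightest genes stayed the same under each normalization, offset and the authors' table, and 13 did with the mean of the probes. Of 73 lists, 5 changed their count of members detected on all 4 kidneys by over 1.5 times at the stricter threshold, the olfactory and vomeronasal list falling to 3, and 1 without kidney 2, the sex-linked list. The 241 named genes moved by over 1 SD in mean signal for 0 to 52 genes, most with the mean of the probes (leaving out 1 kidney of 4 cannot move a mean that far), and in range for 0 to 63, most without kidney 4. No paired analysis was possible because a single group was described and no test between groups was made. Dim signals near background and probes that bind poorly limit every statement on undetected genes.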
